A study of Gallus gallus and Anas platyrhynchos and Coturnix japonica with 11 samples.

Results

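The mid and upper face of a bird grows out of the frontonasal prominence (FNP), whose mesenchyme descends from the cranial neural crest. Mature miRNAs were sequenced in this mesenchyme from domestic chicken embryos at 2 Hamburger-Hamilton stages, the numbered steps by which chick development is staged. The later stage was HH25, when the facial form of a species becomes visible, and the earlier stage was HH20. No treatment or genetic change was applied to any embryo. The first sample of each stage pooled the tissue of 40 embryos and the second sample pooled 5, so that chicken holds 4 of the 10 biological samples and 5 of the 11 libraries of the series, which also covers quail and duck. The second HH25 sample went through 2 sequencing runs, whose mean stands here for 1 sample. Below, the first samples of both stages are together called the first pool, and the second samples the second pool. Each sample is still a pool of its own embryos. Every library lists the same 186 miRNAs. Values are normalized read counts, in reads per 1000000 reads of the library after adapter removal (PMMR). A pool gives no measure of the spread between embryos, and the surface ectoderm and forebrain neuroectoderm had been removed by enzyme and needle, a step that can leave other cells behind.

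A miRNA is a short RNA that pairs with messenger RNAs, mainly through its seed (bases 2 to 8), and lowers their output. Each hairpin precursor gives a main strand and a partner, the star strand, written with an asterisk. These are names and do not always follow abundance. In the chicken samples miR-144* made up 97.5% to 99.5% of both its strands and miR-199* 73.5% to 81.8%. The let-7 family accumulates as embryonic cells differentiate, and the LIN28 proteins, which are present in early progenitors, hold back its maturation. The cluster of miR-302 and miR-367 is known from the pluripotent cells of the early vertebrate embryo. The comparison asks which miRNAs changed while the face took its form.

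The strands below are printed from the deposited files, 5′ to 3′, with the seed in capitals, because 11 of the 23 miRNAs that changed alike in both pools belong to these families. The 8 let-7 strands carry 1 seed, GAGGUAG, and no other strand among the 186 has it.
let-7a: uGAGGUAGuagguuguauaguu
let-7b: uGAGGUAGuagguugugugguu
let-7c: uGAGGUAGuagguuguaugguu
let-7d: aGAGGUAGuggguugcauagu
let-7f: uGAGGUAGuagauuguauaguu
let-7g: uGAGGUAGuaguuuguacagu
let-7i: uGAGGUAGuaguuugugcugu
let-7k: uGAGGUAGuagauugaauaguu
miR-302b: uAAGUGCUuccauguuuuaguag
miR-302c: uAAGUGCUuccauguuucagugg
miR-302b*: aCUUUAACauggaggugcuuucu
Apart from the shared seed, let-7a differs from let-7c and from let-7f by 1 base, and miR-302b differs from miR-302c by 2. Reads had been mapped with 0 to 2 mismatches, so reads of one such strand can be counted under another. Among the miRNAs that changed alike, sums are given for the let-7 family with its star strands. They are also given for the seed of miR-302b and miR-302c and for that of miR-135b*. Of all 186 mature sequences, 58 lie within 2 mismatches of another.

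The libraries differed in depth, in their share of miRNA reads and in their likeness to each other. They held 3658272 to 7264459 reads after adapter removal, of which 53.5% to 71.5% fell on the 186 miRNAs, and this share followed the stage: it was 71.5% in the first HH25 sample and 65.8% and 62.5% in the runs of the second, against 61.9% and 53.5% in the HH20 samples. PMMR is scaled to all reads, so this share enters every value. The first HH25 sample stood apart: for 45 of 186 miRNAs its level was over 4-fold away from the average of the remaining 9 samples of the series, against 3 to 13 miRNAs in each of those. The HH25 samples differed from each other by more than 2-fold in 104 miRNAs and the HH20 samples in 60. Both runs of the second HH25 sample differed by that much in 7. Across the 186 miRNAs, which are not independent and share the library's depth, the Pearson correlation on log2(PMMR + 1) was 0.84 between the HH25 samples, 0.96 between the HH20 samples and 0.99 between the runs. The median SD within a stage was 0.83 on the log2 scale at HH25 and 0.46 at HH20 (n = 2 samples each).

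Between the stages, 23 of the 186 miRNAs (12.4%) changed at least 2-fold in the same direction in both pools, with more than 15 PMMR in at least 1 library of each pair. Of these, 15 (8.06% of all miRNAs) were higher at HH25, among them 8 let-7 strands, miR-100 and miR-218. The other 8 (4.3%) were lower at HH25, among them miR-302b, miR-302b* and miR-302c. In the first samples alone 99 miRNAs passed the same rule, 62 higher (33.3%) and 37 lower (19.9%), a split that median-centring of each library changed to 50 higher and 46 lower. In the second samples alone 64 passed, 37 higher (19.9%) and 27 lower (14.5%). The shared 23 are 23.2% of the 99 and 35.9% of the 64. A further 17 miRNAs (9.14%) passed in both pools in opposite directions. Of all 186 miRNAs, 102 (54.8%) were higher at HH25 at any size in the first pool and 103 (55.4%) in the second. Direction counts of families and marker lists below stand beside these shares. At any size of change, 91 of 186 miRNAs had the same direction in both pools, and the log2 changes of the pools had a correlation of 0.04 across miRNAs.

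**Figure D1:**
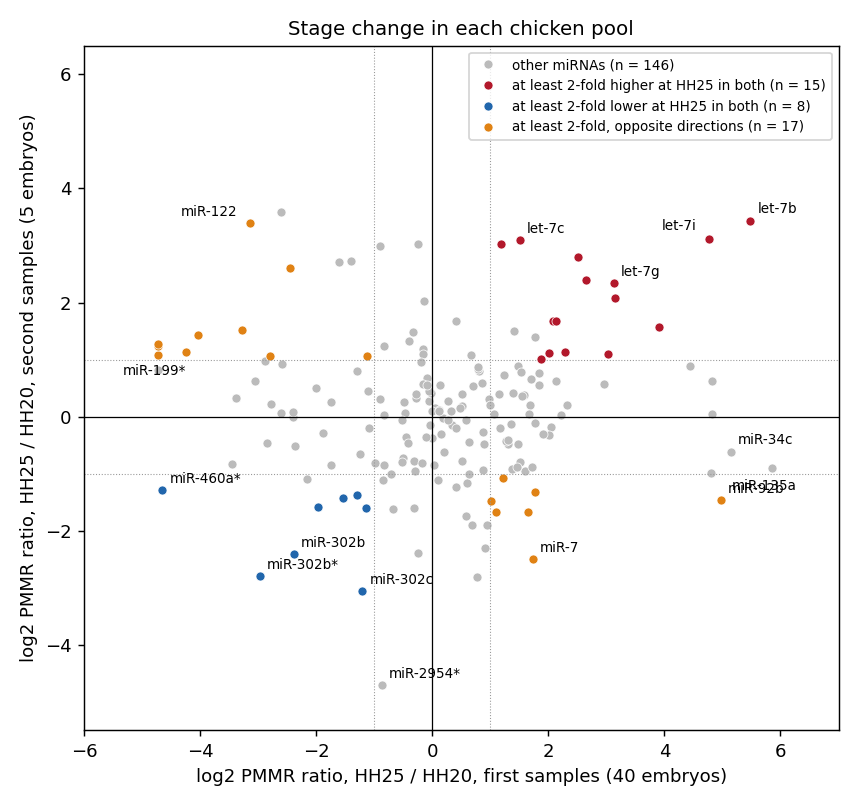
Each point is 1 of 186 miRNAs, with the log2 PMMR ratio of HH25 over HH20 in the first samples (40 embryos) on the x axis and in the second samples (5 embryos) on the y axis; dotted lines mark 2-fold. The 15 miRNAs higher in both pools lie at the upper right, the 8 lower in both at the lower left, and the 17 with opposite directions in the other corners.

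With 2 samples per stage no exact permutation test can go below p = 0.333, so the change over both pools was tested by limma's moderated test on log2(PMMR + 1) across all 186 miRNAs. After Benjamini-Hochberg adjustment, 0 of the 186 had a p below 0.05. At an unadjusted p under 0.05 there were 12 (6.45%), 8 higher (4.3%) and 4 lower (2.15%) at HH25. The 8 were let-7a, let-7b, let-7c, let-7f, let-7g, let-7i, let-7k and miR-181a*, and the 4 were miR-302b, miR-302b*, miR-460a* and miR-2954*. limma voom on the recovered reads also called 0. A fit that took in the duck samples and treated the sample number as a replicate block, added after the data were seen, called 3: let-7a and let-7g (adjusted p = 0.0388 each from limma) and let-7i (0.0499). The result rested on the HH25 samples. Without the second of them the same test called 37 miRNAs (21 higher, 16 lower), 7 let-7 strands among them. Without the first it called 2, miR-122 (higher) and miR-2954* (lower). In each of these fits the lone HH25 sample is assumed to vary like the HH20 pair.

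The let-7 family held 11.5% and 6.89% of all reads in the HH25 samples, against 2.76% and 1.14% in the HH20 samples, given here and below with the first sample before the second. By level, its 10 strands summed to 115327 and 68885 PMMR at HH25, against 27629 and 11443 PMMR at HH20. Both HH25 sums lay above both HH20 sums, by 4.17-fold in the first pool and 6.02-fold in the second. All 10 strands were at least 2-fold higher at HH25 in the first pool, beside 33.3% of all miRNAs, and 8 in the second, beside 19.9%. Their median log2 change was 2.58 in the first pool and 2.37 in the second, beside 0.23 and 0.10 over all 186 miRNAs. Median-centring of each library subtracts 0.36 from each log2 change in the first pool and -0.12 in the second. It left 10 and 9 strands higher.

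let-7a, the form conserved from worms to vertebrates, had 52203 and 23372 PMMR at HH25, against 9139 and 3357 PMMR at HH20. Both HH25 samples lay above both HH20 samples, and the log2 change over both pools was 2.66 (SE 0.767, adjusted p = 0.428 from limma). let-7c had 36930.0 and 30719 PMMR at HH25, against 12995 and 3579 PMMR at HH20. For let-7c the HH25 samples lay close together and the HH20 samples did not. let-7f had 20196 and 12215 PMMR at HH25, against 4782 and 3843 PMMR at HH20.

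Of let-7b, let-7g and let-7i, each first-pool ratio was above that of let-7a. let-7g had 4179 and 1702 PMMR at HH25, against 478 and 334 PMMR at HH20. This strand had the lowest p of the fit, with a log2 change of 2.73 (SE 0.714, adjusted p = 0.428 from limma). let-7i had 260.0 and 68.7 PMMR at HH25, against 9.58 and 7.91 PMMR at HH20, ratios of 27.1 and 8.68. let-7b had 519 and 45.5 PMMR at HH25, against 11.6 and 4.20 PMMR at HH20, the last from 26 reads. Its ratios, 44.6 and 10.8, were the largest of the agreeing miRNAs in each pool, and the HH25 samples themselves differed by 11.4-fold. let-7k had 839 and 672 PMMR at HH25, against 192 and 211 PMMR at HH20. let-7d had 47.0 and 16.2 PMMR at HH25, against 7.53 and 3.07 PMMR at HH20. For all 8 main strands the HH25 samples lay above both HH20 samples, as for 35 of all 186 miRNAs (18.8%).

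The star strands of the family differed from the main strands in the second pool. let-7a* had 108 and 28.5 PMMR at HH25, against 3.88 and 56.3 PMMR at HH20, so that it was higher at HH25 in the first pool and lower in the second. let-7c* had 44.6 and 47.0 PMMR at HH25, against 9.58 and 46.0 PMMR at HH20. As a share of both strands of let-7a, let-7a* was 0.206% and 0.122% at HH25, against 0.0424% and 1.65% at HH20. For let-7c* the same share was 0.121% and 0.153% at HH25, against 0.0737% and 1.27% at HH20. As a share of both strands, each star strand was highest in the second HH20 sample. That was not particular to let-7. The share of miR-15b* was 35.0% in that sample, against 6.08% to 14.4% in the others. Not every pair went this way: the share of miR-145* was lowest there (19.9%).

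In the RefSeq gene table (assembly GRCg7b), let-7a-3 lies beside let-7b on chromosome 1, let-7c beside miR-99a on the same chromosome, and let-7a-2 near miR-100 on chromosome 24. The hairpins named here are within 10 kb of the next one listed. miR-100, which belongs with miR-99 to an old family with the seed ACCCGUA, had 18486 and 7408 PMMR at HH25, against 4590 and 3406 PMMR at HH20. Its ratios were 4.03 and 2.17, and both HH25 samples exceeded both HH20 samples. miR-99a, 1 base away from it, had 2453 and 1571 PMMR at HH25, against 1351 and 1044 PMMR at HH20. miR-125b, the vertebrate relative of lin-4 that shares clusters with let-7 and miR-100, had 13707 and 7785 PMMR at HH25, against 5816 and 4674 PMMR at HH20. The 7 strands of this group were higher at HH25 in 7 and 6 cases, with median log2 changes of 1.24 and 0.59, and miR-100 alone passed 2-fold in both pools.

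**Figure D2:**
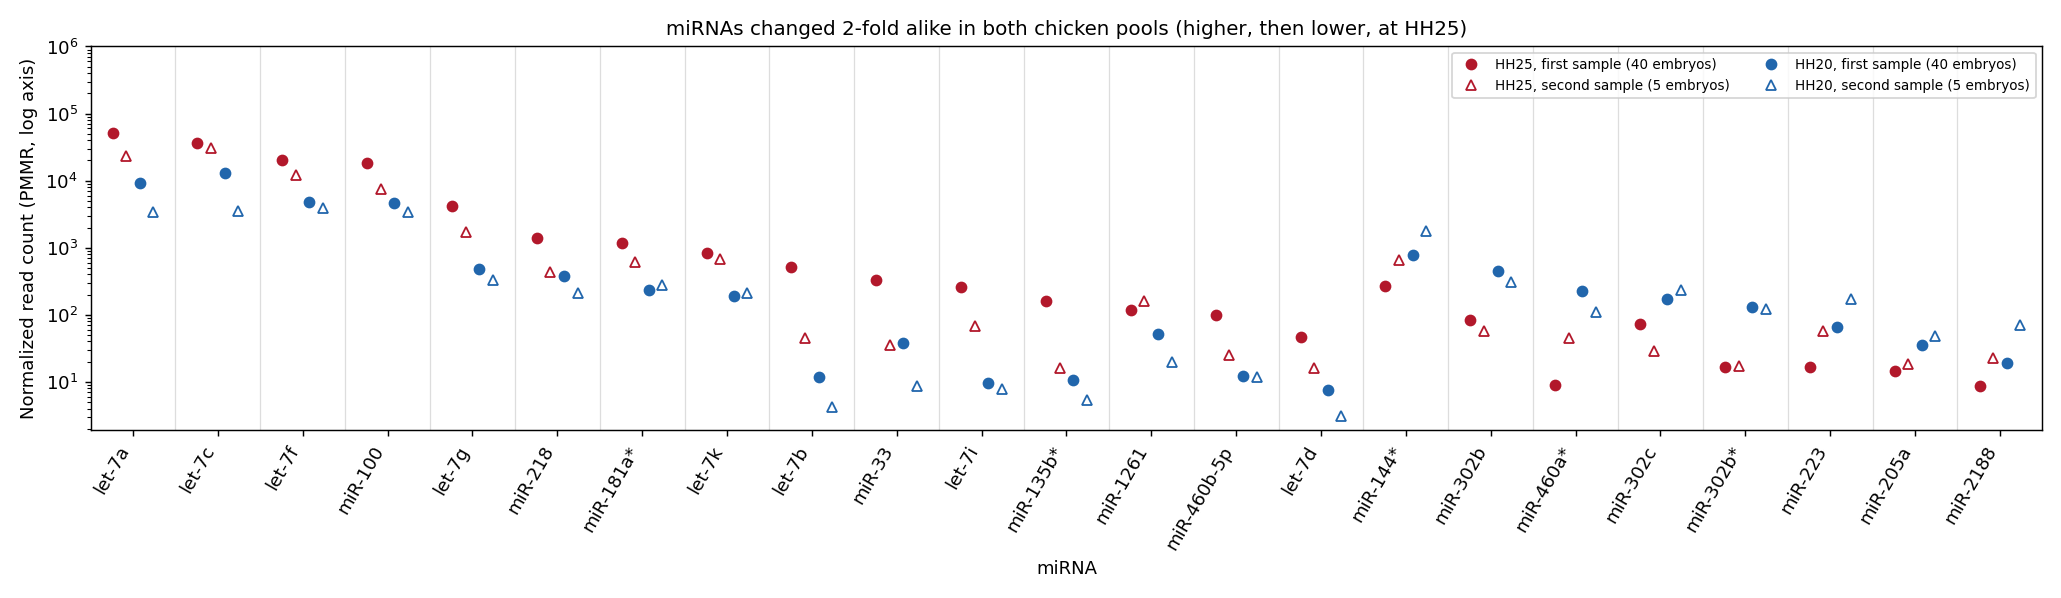
Normalized read count (PMMR, log axis) of the 23 miRNAs that changed at least 2-fold alike in both pools, with HH25 (red) left of HH20 (blue), circles for the first samples and triangles for the second. The 15 miRNAs at the left are higher at HH25 and the 8 at the right lower; let-7a has 52203 and 23372 PMMR at HH25, against 9139 and 3357 PMMR at HH20.

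Of the cluster of miR-302 and miR-367, 3 of the 4 detected strands were at least 2-fold lower at HH25 in both pools. Among all 186 miRNAs this held for 8 (4.3%), these 3 included. miR-302b had 84.7 and 57.7 PMMR at HH25, against 445 and 306 PMMR at HH20. It gave nearly the same ratio in both pools (5.25-fold and 5.31-fold lower), and the log2 change was -2.38 (SE 0.802, adjusted p = 0.428 from limma). The star strand miR-302b*, from the same hairpin, had 16.7 and 17.5 PMMR at HH25, against 131 and 122 PMMR at HH20. For miR-302b* the samples of a stage lay close together and far from those of the other stage. miR-302c had 73.8 and 28.6 PMMR at HH25, against 170.2 and 238 PMMR at HH20. The sum over the seed AAGUGCU was 159 and 86.3 PMMR at HH25, against 615 and 544 PMMR at HH20, which does not depend on how reads were split between miR-302b and miR-302c. miR-367, the cluster's member with another seed, had 3.01 and 0.755 PMMR at HH25, against 2.28 and 1.78 PMMR at HH20, from 11 reads or fewer in each library, too few to give a direction. RefSeq places miR-302b and miR-302c side by side on chromosome 4, with miR-367 in the same run of hairpins.

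The other 6 miRNAs higher at HH25 in both pools do not share a seed. miR-218, whose hairpins lie in the introns of the SLIT genes in vertebrates, had 1380 and 430.0 PMMR at HH25, against 377 and 214 PMMR at HH20, and with a ratio of 2.005 in the second pool it stood just inside the rule. miR-181a* had 1162 and 608 PMMR at HH25, against 237 and 277 PMMR at HH20, a log2 change of 1.71 (SE 0.71, adjusted p = 0.676 from limma). Its partner miR-181a had 4047 and 2284 PMMR at HH25, against 1452 and 1231 PMMR at HH20, and at a ratio of 1.85 in the second pool it stood just outside. miR-33, hosted in vertebrates by the SREBF genes of lipid metabolism, had 334 and 36.0 PMMR at HH25, against 37.7 and 8.55 PMMR at HH20. The second HH25 sample was thus below the first HH20 sample, and the groups overlapped. miR-135b* had 161 and 15.8 PMMR at HH25, against 10.7 and 5.33 PMMR at HH20. It lies 1 base from miR-135a-3*, with which it shares the seed UGUAGGG. The sum over that seed was 1068 and 71.2 PMMR at HH25, against 42.9 and 41.2 PMMR at HH20. In the second pool this sum was 1.73-fold higher, below the 2-fold limit. miR-460b-5p had 98.9 and 25.2 PMMR at HH25, against 12.1 and 11.8 PMMR at HH20. miR-1261 alone of the 6 was higher in the second HH25 sample than in the first, with 118 and 158 PMMR at HH25, against 52.3 and 19.5 PMMR at HH20.

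The remaining 5 miRNAs lower at HH25 in both pools include 3 that belong to lists of tissue markers. miR-223, known from myeloid white blood cells, had 16.7 and 57.5 PMMR at HH25, against 65.5 and 172 PMMR at HH20. miR-144*, from the erythroid cluster with miR-451, had 270 and 661 PMMR at HH25, against 787 and 1785 PMMR at HH20. miR-205a, known from surface epithelium, had 14.5 and 18.4 PMMR at HH25, against 35.6 and 47.5 PMMR at HH20. The other 5 of the 6 surface ectoderm markers were lower at HH25 in the first pool and higher in the second. In miR-223, miR-144* and miR-205a the second sample of a stage was the higher. In bulk tissue, fewer cells of a type and less RNA per cell cannot be told apart. miR-460a* had 9.02 and 45.8 PMMR at HH25, against 228 and 112 PMMR at HH20, and in the run 2 library of the second HH25 sample it had 28.2 PMMR, against 63.4 PMMR in run 1. miR-2188 had 8.75 and 23.0 PMMR at HH25, against 19.4 and 70.0 PMMR at HH20, with groups that overlapped.

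The blood lists summed to lower levels at HH25 than at HH20 in each pool. All 4 white blood cell markers (miR-142-3p, miR-142-5p, miR-150 and miR-223) were lower in each pool, and they summed to 76.3 and 178 PMMR at HH25, against 278 and 333 PMMR at HH20. Of the 3 red blood cell markers 2 were lower in the first pool and 3 in the second, with sums of 369 and 924 PMMR at HH25, against 977 and 2249 PMMR at HH20. No marker of either list was at 0, which holds for every miRNA listed. Under median-centring the directions of both lists stayed as given. Of these 7 markers 0 reached an unadjusted p under 0.05 in the limma fit. The part that blood cells have in the values of miR-223 and miR-144* was not tested.

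Most other large changes were seen in 1 pool. In the first pool the largest ratio was that of miR-135a, with 2707 PMMR in the HH25 sample, against 47.0 PMMR in the HH20 sample (57.6-fold). In the second pool it had 120 PMMR at HH25, against 224 PMMR at HH20, the other direction. miR-34c, a miRNA of the p53-responsive miR-34 family, had 467 PMMR at HH25, against 13.2 PMMR at HH20 in the first pool, and 4.22 PMMR at HH25, against 6.46 PMMR at HH20 in the second. miR-32 had 155 PMMR at HH25, against 5.48 PMMR at HH20 in the first pool, and 7.13 PMMR at HH25, against 6.94 PMMR at HH20 in the second. These 3 rest on the first HH25 sample, the highest of the 4 in each, while the other samples lay at or below 224 PMMR.

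In the second pool the largest ratio upward was that of miR-369-3p, with 48.5 PMMR at HH25, against 4.03 PMMR at HH20 (12.02-fold). In the first HH25 sample it had 0.82 PMMR, from 3 reads. The largest ratio downward was that of miR-2954*, the star strand of an avian miRNA from chromosome Z, with 79.5 PMMR at HH25, against 2071 PMMR at HH20 (26.0-fold lower). Its first-pool values were 368 PMMR at HH25, against 675 PMMR at HH20, and its log2 change over both pools was -2.78 (SE 0.963, adjusted p = 0.433 from limma). The main strand miR-2954 had 11992 and 1680 PMMR at HH25, against 7016 and 11849 PMMR at HH20, so that the second HH25 sample was low and the pools differed in direction. Chromosome Z is a sex chromosome of birds, and miR-2954 is known in zebra finch to be higher in males. The labels do not give the sex of the embryos, and its part in these values was not tested.

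The 17 miRNAs with opposite directions fall into 2 sets. Of these, 10 were lower at HH25 in the first pool and higher in the second: miR-200a, miR-200b, miR-429, miR-183, miR-199*, miR-145*, miR-460, miR-122, miR-10a and miR-132. The first HH25 sample was the lowest of the 4 in all of them, and the second HH25 sample was the highest in all but miR-460. The directions that define this set favour both. miR-200b, an epithelial miRNA that represses the ZEB factors, had 2.19 and 81.5 PMMR at HH25, against 58.0 and 34.5 PMMR at HH20, the first value from 8 reads. miR-429, with which it shares the seed AAUACUG, had 22.4 and 235 PMMR at HH25, against 218 and 81.8 PMMR at HH20. miR-122, the abundant miRNA of liver, had 2.19 and 533 PMMR at HH25, against 19.4 and 50.5 PMMR at HH20. The other 7 were higher at HH25 in the first pool and lower in the second: miR-7, miR-30b, miR-30e*, miR-92b, miR-129-3p, miR-15b* and miR-2131. miR-7, known from neural and endocrine cells, had 1165 and 81.1 PMMR at HH25, against 350 and 459 PMMR at HH20. miR-92b had 3360 and 104 PMMR at HH25, against 107.3 and 288 PMMR at HH20.

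**Figure D3:**
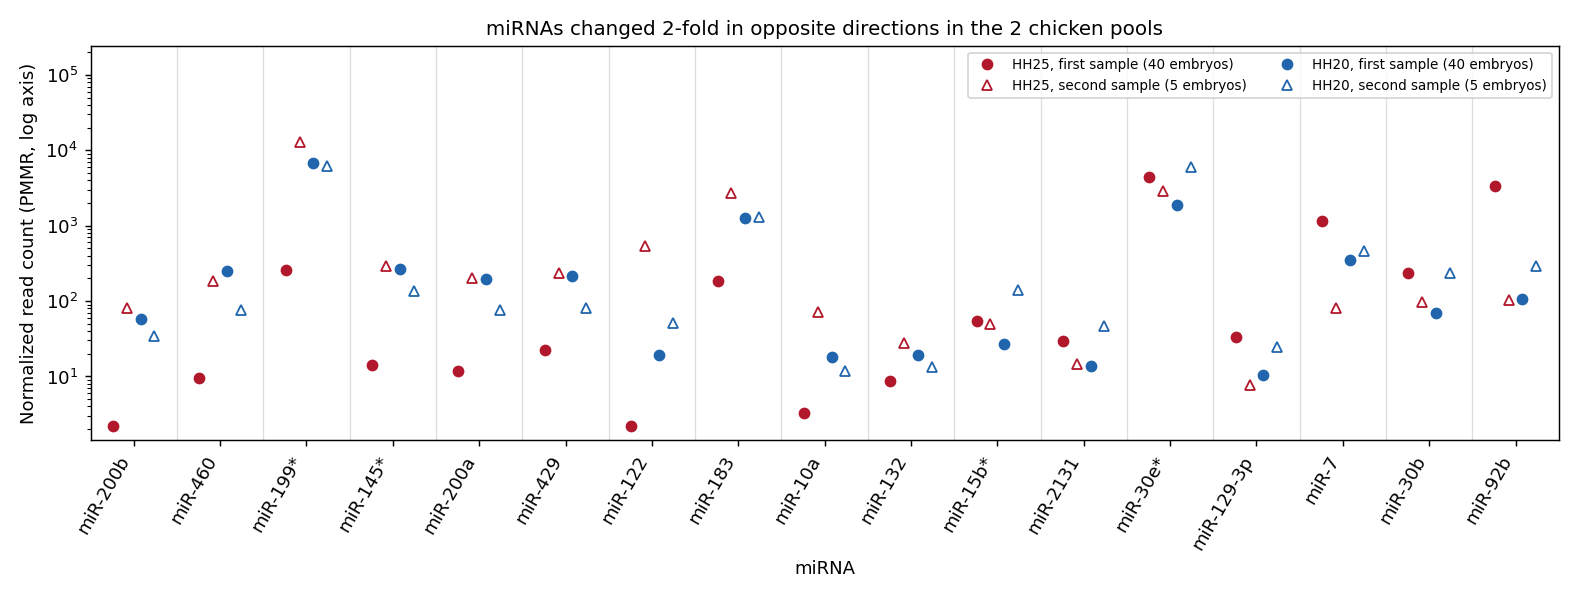
Normalized read count (PMMR, log axis) of the 17 miRNAs that changed at least 2-fold in opposite directions in the pools, with HH25 (red) left of HH20 (blue), circles for the first samples and triangles for the second. In the first 10 miRNAs from the left the first HH25 sample is the lowest of the 4, as for miR-122 with 2.19 PMMR. In all of these but miR-460 the second HH25 sample is the highest.

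Whole lists of tissue markers differed between the HH25 samples. The 6 surface ectoderm markers summed to 87.2 and 726 PMMR at HH25, against 665 and 408 PMMR at HH20: all 6 were lower in the first pool and 5 of 6 higher in the second. The 3 neurosensory placode markers (miR-96, miR-182 and miR-183) summed to 511 and 8914 PMMR at HH25, against 3994 and 5334 PMMR at HH20. Endothelium markers (miR-126 and miR-126*) summed to 4992 and 16842 PMMR at HH25, against 30275 and 16407 PMMR at HH20. Neural tissue markers went the other way, with 10 of 11 higher at HH25 in the first pool and 4 of 11 in the second, and sums of 4366 and 921 PMMR at HH25, against 1507 and 1873 PMMR at HH20. miR-137, a miRNA of neural progenitors, had 1119 and 47.8 PMMR at HH25, against 51.8 and 25.7 PMMR at HH20. None of these markers was at 0 in any chicken library, which holds for every miRNA listed. Their part in the changes of the first pool was not tested.

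The miR-199 strands and miR-143, known from mesenchyme, were also low in the first HH25 sample. miR-199 and miR-199*, from 1 hairpin, summed to 315 and 16961 PMMR at HH25, against 8325 and 8378 PMMR at HH20. Of the cluster of miR-143 and miR-145, known from smooth muscle and mesenchymal cells, miR-143 had 5167 and 39467 PMMR at HH25, against 37422 and 54488 PMMR at HH20. miR-140-3p, a miRNA of cartilage, had 10823 and 33886 PMMR at HH25, against 12042 and 14906 PMMR at HH20. Its partner miR-140-5p had 698 and 2144 PMMR at HH25, against 924 and 860 PMMR at HH20. In the first pool miR-140-3p and miR-140-5p were only 1.11-fold and 1.32-fold lower at HH25. In the second pool they were 2.27-fold and 2.49-fold higher. For the 4 cartilage strands the median log2 change was -0.76 in the first pool and 0.81 in the second. All 4 samples held these strands of mesenchyme and cartilage, and the first HH25 sample had the lowest level of each strand named here.

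**Figure D4:**
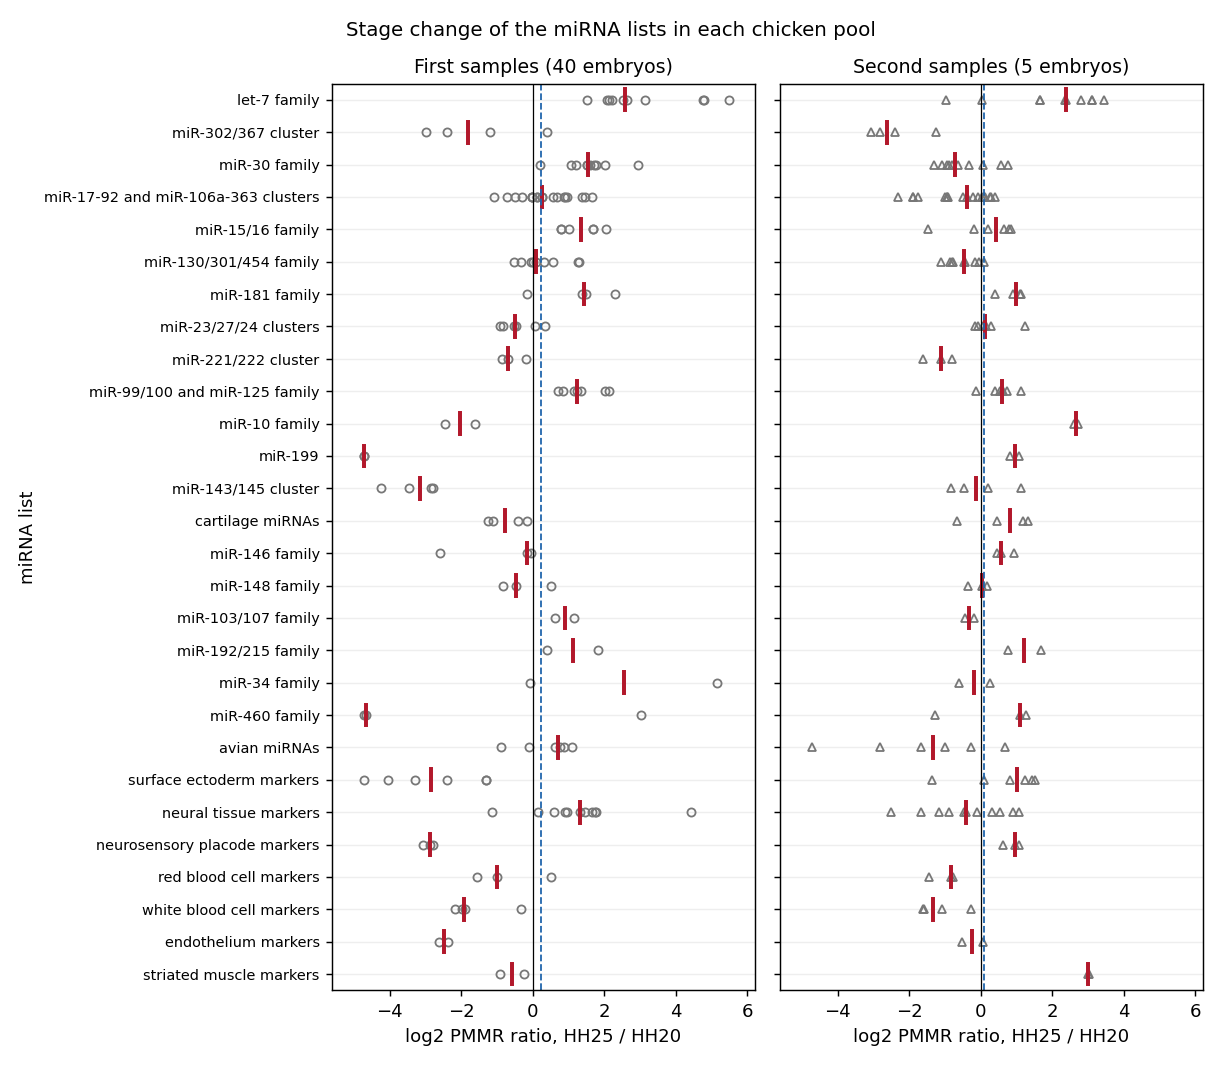
The log2 PMMR ratio of HH25 over HH20 for the members of each miRNA list of 2 or more (grey) with the list's median (red bar) and the median of all 186 miRNAs (dashed), first samples left and second samples right. The let-7 median is 2.58 in the first and 2.37 in the second samples, the median of the miR-302 and miR-367 cluster is -1.80 and -2.60, and the surface ectoderm median is -2.84 and 1.02.

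Among the other families, the miR-30 family, known to repress genes of mesenchymal transition in epithelia, had all 10 strands higher at HH25 in the first pool and 3 in the second. Their median log2 changes were 1.55 and -0.71. miR-30a-5p was higher in both, with 23342 and 5486 PMMR at HH25, against 3015 and 3701 PMMR at HH20. The family of miR-15 and miR-16, which restrains the cell cycle, was higher in 6 and 4 of 6 strands. Over all 186 miRNAs, 54.8% and 55.4% were higher at any size of change. Its abundant member miR-16 had 29409 and 15671 PMMR at HH25, against 16928 and 8994 PMMR at HH20, ratios of 1.737 and 1.742 that agree closely between pools and lie below 2-fold. The HH25 and HH20 samples of miR-16 overlapped, since the second HH25 sample was below the first HH20 sample.

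All 3 strands of the cluster of miR-221 and miR-222, which targets the cell cycle inhibitor p27, were lower at HH25 in both pools. miR-222 had 470.2 and 442 PMMR at HH25, against 849 and 952 PMMR at HH20, and miR-221* had 533 and 467 PMMR at HH25, against 852 and 1437 PMMR at HH20. In these 3 strands the groups did not overlap, as in 23 of all 186 miRNAs (12.4%) in this direction and 35 (18.8%) in the other. All 4 strands of the miR-181 family were higher in the second pool and 3 in the first, with median log2 changes of 1.43 and 0.998. The 19 strands of the miR-17-92 and miR-106a-363 clusters, which promote proliferation, were mixed: 12 were higher at HH25 in the first pool and 7 in the second, and median-centring made this 8 and 8. miR-17-5p had 12780 and 7646 PMMR at HH25, against 11765 and 7089 PMMR at HH20, and miR-20a had 18887 and 10170 PMMR at HH25, against 15629 and 8408 PMMR at HH20. In the first pool 3 of the 19 were at least 2-fold higher at HH25 and 1 lower, beside 33.3% and 19.9% of all miRNAs. In the second pool 0 were higher and 5 lower, beside 19.9% and 14.5% of all miRNAs. Of these 5, miR-18b* had 51.6 PMMR at HH25, against 255 PMMR at HH20, and miR-92 had 5148 PMMR at HH25, against 17238 PMMR at HH20.

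Duck is the other species with 2 samples per stage, and its samples are separate from those of chicken. The stage change in chicken minus that in duck, tested as an interaction by limma, passed the adjusted threshold for 0 miRNAs (1 at an unadjusted p under 0.05, or 0.538%). That 1 was miR-184, with 271 and 1890.0 PMMR in chicken at HH25, against 1430 and 1897 PMMR in chicken at HH20, and a difference of -2.88 on the log2 scale (SE 1.16, adjusted p = 0.996 from limma). In duck its log2 changes were 1.71 and 1.65. Without the second chicken HH25 sample the same test called 16 miRNAs, and without any other sample it called 0. Of the 15 miRNAs higher in both chicken pools, 12 were higher at HH25 in both duck samples, a direction taken by 56 of all 186 miRNAs (30.1%). The exceptions were miR-100, miR-33 and miR-460b-5p. These 12, like the 12 in quail below, include the 8 let-7 main strands. Those strands share a seed and can share reads, so they are not separate cases. For let-7k the log2 change in the second duck sample was only 0.0017, and for miR-181a* that in the first was 0.037. Of the 8 lower in both chicken pools, 6 were lower in both duck samples, against 55 of all 186 (29.6%). Among the 6 were miR-302b, miR-302b* and miR-302c, the first 2 from 1 hairpin. miR-144* was also among them, with duck log2 changes of only -0.0011 and -0.17. miR-205a and miR-223 were the exceptions. In quail, with 1 sample per stage and no replicate check, the same direction held for 12 of the 15, against 99 of all 186 miRNAs higher at HH25 (53.2%), and for 7 of the 8, against 87 of all 186 lower (46.8%).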

How the data were processed

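Size-selected small RNA was sequenced on an Illumina GAIIX. The authors removed adapters, mapped reads with miRanalyzer release 1 to the mature chicken and human miRNAs of miRBase 16 with 0 to 2 mismatches, set a detection limit of 15 PMMR in any library, and deposited a signal value (PMMR) for each miRNA and library. A last row with the total reads is no miRNA and entered no test. Every deposited chicken value times the total lay within 0.0363 of a whole read. A single read was worth 0.138 to 0.273 PMMR, and the lowest count was 3 reads. Intervals were not computed, since counting error is not the spread between pools.

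Ratios of PMMR carry no pseudocount. The 2-fold rule asks for more than 15 PMMR in at least 1 library of a pair. The fit used limma 3.58.1 in R 4.3.3 with an intensity trend on log2(PMMR + 1), which understates the change of low miRNAs. It was also run on simulated data. There the SDs were shuffled among miRNAs, so that run is no check of the intensity trend. Other values came from Python 3.11.15 with numpy 2.4.6, pandas 2.3.3, scipy 1.17.1 and matplotlib 3.10.9. Samples were grouped by the stage in their labels. Sample numbers mark how many embryos were pooled (40 or 5). Whether the samples of a number were prepared together is not stated. The difference of second from first sample had a correlation of 0.01 between the stages, so the fit has no block and the changes are given per pool.

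The miRNAs named are all that changed 2-fold alike in both pools, the 5 largest ratios in each direction in each pool, the 5 lowest p in each direction, and members of 29 lists of families, clusters and tissue markers. The samples, lists and rules were chosen with earlier results of these data known. Alternatives were pseudocounts of 0.1 and 10, median-centring, other filters, limma without a trend, limma voom, the replicate block, each run alone, the duck groups in the fit and leaving out each sample.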

Additional observations from a re-analysis of the deposited data

How the results depend on the processing

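The count of 0 calls between the stages in chicken held under all alternatives that kept every sample, with the sample number as a replicate block among them, except the fit with the duck groups and a replicate block (added after the data were seen), which called 3. At an unadjusted p under 0.05 the count was 12, with 21 for the fit with the duck groups and 25 for that fit with the block. Leaving out 1 sample gave 0 to 37 calls and 0 to 55 miRNAs at an unadjusted p under 0.05. The difference of chicken from duck gave 0 to 16 calls and 0 to 38 at an unadjusted p when 1 sample was left out, and 2 at an unadjusted p, in place of 1, under the replicate block and with run 1 alone. The highest counts came without the second chicken HH25 sample. A limit of 1.5-fold in place of 2-fold gave 56 higher and 47 lower in the second pool, and 28 higher and 15 lower in both pools alike, by its construction. Requiring Fisher's exact test between the reads of a pair as well, which compares libraries and not stages, kept all 23 shared miRNAs. It removed no call at all: the 62 higher and 37 lower of the first pool and the 37 higher and 27 lower of the second all stayed. It therefore does not set the 23 apart. More than 50 PMMR kept 10 of the 15 and 6 of the 8 (without let-7b, let-7d, miR-135b*, miR-33, miR-460b-5p, miR-205a and miR-2188). A pseudocount of 1 PMMR lost miR-218. Median-centring lost miR-1261 and added miR-137 and miR-181a among the higher and miR-221* and miR-2954* among the lower. Run 1 alone kept 13 of the 15 and 7 of the 8, losing miR-135b*, miR-181a* and miR-460a* and adding miR-137 and miR-145, and run 2 alone kept 12 and 8, losing let-7d, miR-218 and miR-460b-5p. Neither the 23 shared miRNAs nor miR-2954* changed the direction of the log2 change over both pools in any fit, those that left out 1 sample among them. For the 23 this is no separate check. They were chosen for moving alike in both pools of these samples, which largely fixes that direction. The edgeR and DESeq2 fits that had been planned were not run, and limma voom was the only fit on the recovered reads. Depth limits few values: 3 values in the chicken samples rest on 3 reads, and miR-367 rests on 11 or fewer in each library.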

Other observations

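The lists not described above are given here by level, first sample before second. The miR-10 strands, Hox-linked miRNAs of posterior tissue, summed to 4.10 and 99.0 PMMR at HH25, against 20.5 and 15.97 PMMR at HH20. The striated muscle markers miR-1a and miR-1b summed to 93.2 and 346 PMMR at HH25, against 172 and 43.6 PMMR at HH20. miR-1a gave nearly all of it, with 89.9 and 342 PMMR at HH25, against 168 and 43.1 PMMR at HH20. In both lists the second HH25 sample was the highest of the 4. The miR-146 family, a target of inflammatory signalling in mammals, was among the most abundant, with sums of 73654 and 124104 PMMR at HH25, against 79734 and 86563 PMMR at HH20, and all 3 strands were lower at HH25 in the first pool and higher in the second.

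The intestinal pair of miR-192 and miR-215 was higher at HH25 in both pools, with 898 and 506 PMMR at HH25, against 256 and 237 PMMR at HH20, but miR-192 itself had 8.75 and 220 PMMR at HH25, against 6.62 and 68.4 PMMR at HH20, so that its samples differed more by pool than by stage. The family of miR-103 and miR-107 summed to 39474 and 23605 PMMR at HH25, against 25545 and 32010 PMMR at HH20. The miR-148 family summed to 16317 and 15424 PMMR at HH25, against 22852 and 19301 PMMR at HH20, both HH25 sums lying below both HH20 sums. The clusters of miR-23, miR-24 and miR-27 had sums of 4260 and 4194 PMMR at HH25, against 5252 and 3889 PMMR at HH20. The family of miR-130, miR-301 and miR-454 had 15489 and 18216 PMMR at HH25, against 16817 and 27801 PMMR at HH20. The 3 miR-460 strands summed to 118 and 253 PMMR at HH25, against 492 and 199 PMMR at HH20, and each strand had its own pattern. The 6 avian miRNAs were higher at HH25 in 4 cases in the first pool and 1 in the second.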
